A study of Homo sapiens with 6 samples.

Results

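Interferon-stimulated genes are the genes that cells switch on when interferon binds its receptors. They were examined here as a list of 55 genes, of which 39 had an array feature that the platform annotation names with a single gene symbol, out of 14884 genes named in this way. Each of the 39 had exactly 1 such feature. The other 16, OAS1, OAS2, OAS3, MX1, STAT2, GBP1, GBP2, PARP9, PARP12, PARP14, IFI6, IFI16, IFI27, ADAR, CMPK2 and LGALS3BP, were not analysed here. The cells were SUM159, a triple-negative human breast carcinoma line, and the samples were 6 total RNA preparations hybridised to 6 single-colour arrays. In the decitabine group (n = 3) the cells had received 1 µM of the drug for 72 h with fresh medium each day, and the untreated group (n = 3) is labelled as NT medium for 72 h, without further detail. The titles of the NT samples also carry the 1 µM dose, and the treatment protocol, which is given for all samples alike, calls the drug a deoxy-azacytidine. Both groups grew in F-12 medium with serum, an antibiotic, HEPES, insulin and hydrocortisone. Replicate numbers in the sample titles join each decitabine sample to an untreated one, and these couples are called pairs 1, 2 and 3. Whether the 3 samples of a group came from separate cultures is not stated, so the spread that the p-values rest on may be technical. In bulk RNA, fewer cells with a transcript and less of it per cell cannot be told apart.

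Type I interferons bind the receptor IFNAR1-IFNAR2, whose kinases JAK1 and TYK2 activate transcription factors that bind the interferon-stimulated response element (ISRE) in promoters. The genes these drive encode sensors of viral RNA, factors that strengthen the response, and proteins that block steps of viral growth. Decitabine is a deoxycytidine analogue that traps DNA methyltransferases on DNA. In other carcinoma lines such inhibitors are known to raise transcripts of endogenous retroviruses, whose double-stranded RNA can start an interferon response.

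Levels are given in the log2 units in which the deposited values were read, and a change is decitabine minus untreated. The unit rests on the range of the values, since the log base is not stated. The signal of a feature depends on its probes, so levels order the features and not the amounts of different transcripts. The medians over all 48226 features were 3.03 and 2.98 on the arrays of replicate 1 and 2.29 to 2.42 on the other 4 arrays. Of the markers set as high for SUM159, VIM, FN1, CD44 and AXL lay at 5.80 to 11.14 on all arrays. Of those set as low, ESR1, PGR and FOXA1 lay at 1.50 to 3.51. GATA3, also set as low, was not: it lay at 5.32 to 5.79, the 82.8 to 86.7 percentile of all features. ERBB2 and SPARC were not analysed here. AXL, a receptor kinase of mesenchymal-like cells, fell by 1.79 on the log2 scale (limma adjusted p = 0.0036). Of 11 leukocyte markers 5 were measured, and their mean level was 3.16 to 3.63 on the untreated arrays and 3.41 to 3.72 on the decitabine arrays. Of these CD68, which is also found in lysosomes of other cells, lay at 6.63 to 7.28 and the others (CD14, CSF1R, NKG7, LYZ) at 1.04 to 3.82. CD14 changed by 0.72 and passed the test only with the replicate number as a block (limma adjusted p = 0.0247). CD68 changed by 0.50, CSF1R by -0.17, NKG7 by -0.25 and LYZ by -0.09, without passing in either fit, and the median change of the 5 was -0.09. The measured markers of dendritic cells (CD1C), fibroblasts (DCN, LUM) and endothelium (PECAM1, VWF, KDR) lay at 1.47 to 3.62.

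The promoters of a selection of the members are shown first, because the list is defined by a response that acts through a promoter element. Each line is the 250 bases before the RefSeq start of the gene in GRCh38.p14, 5′ to 3′ on the strand of the gene, and capitals mark the core of an ISRE, read as GAAA, any 2 bases and GAAA on either strand, overlaps allowed. HERC5 (chr4:88456869-88457118 (plus strand)), the member with the largest change, is set beside its neighbour HERC6 (chr4:88378602-88378851 (plus strand)), IFI44 (chr1:78649539-78649788 (plus strand)) is the other member that rose, SAMD9 (chr7:93117980-93118229 (minus strand)) and its neighbour SAMD9L (chr7:93148386-93148635 (minus strand)) had changes of opposite sign, and XAF1 (chr17:6755796-6756045 (plus strand)) had the largest negative change.
HERC5: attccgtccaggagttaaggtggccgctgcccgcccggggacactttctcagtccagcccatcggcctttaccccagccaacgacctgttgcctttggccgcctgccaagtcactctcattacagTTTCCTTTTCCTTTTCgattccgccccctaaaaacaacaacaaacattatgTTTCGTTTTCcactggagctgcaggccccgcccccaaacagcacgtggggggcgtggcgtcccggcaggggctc
HERC6: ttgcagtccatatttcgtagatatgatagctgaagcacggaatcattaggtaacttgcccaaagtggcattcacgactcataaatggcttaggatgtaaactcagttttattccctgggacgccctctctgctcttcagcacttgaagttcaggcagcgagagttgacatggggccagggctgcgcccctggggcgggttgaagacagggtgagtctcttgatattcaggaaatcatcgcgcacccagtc
IFI44: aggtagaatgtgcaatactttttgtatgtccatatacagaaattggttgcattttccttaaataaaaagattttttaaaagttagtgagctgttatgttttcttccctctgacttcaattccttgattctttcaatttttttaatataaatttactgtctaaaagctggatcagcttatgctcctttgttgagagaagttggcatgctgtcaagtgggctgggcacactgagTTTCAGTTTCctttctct
SAMD9: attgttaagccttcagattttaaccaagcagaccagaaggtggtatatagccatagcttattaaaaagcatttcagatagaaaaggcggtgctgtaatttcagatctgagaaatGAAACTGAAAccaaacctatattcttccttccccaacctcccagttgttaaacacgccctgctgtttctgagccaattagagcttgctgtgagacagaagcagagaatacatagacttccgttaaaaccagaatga
SAMD9L: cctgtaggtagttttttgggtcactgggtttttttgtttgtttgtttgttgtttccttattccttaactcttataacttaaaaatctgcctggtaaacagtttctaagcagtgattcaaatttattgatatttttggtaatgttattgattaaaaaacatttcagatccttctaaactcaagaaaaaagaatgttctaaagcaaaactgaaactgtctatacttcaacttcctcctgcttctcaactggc
XAF1: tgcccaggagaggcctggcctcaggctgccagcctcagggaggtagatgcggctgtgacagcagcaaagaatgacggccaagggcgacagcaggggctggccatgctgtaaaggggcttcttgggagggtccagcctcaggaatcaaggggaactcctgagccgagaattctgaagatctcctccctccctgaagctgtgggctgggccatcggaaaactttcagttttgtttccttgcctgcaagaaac

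The HERC5 stretch held 3 matches, which began 125, 119 and 74 bases before the start, the first of them overlapping the second. IFI44 held 1 match, 18 bases before the start, and SAMD9 held 1, at 136 bases. HERC6, SAMD9L and XAF1 held none, which says only that these letters are not in the window. Stretches of other members, not printed, did not all sort in this way. IFI44L, the neighbour of IFI44, held 2 matches, at 164 and 73 bases, and passed in neither fit. SP110 held none and rose with the block. IFIT1 and IFIT3 held 2 each and IFIH1 held 3, and all of these rose with the block. In the windows described next, which run 50 bases past the start, IFIT5 held 3 matches and changed by -0.18. ISG15, BST2, DDX60, IFITM1, IFITM3 and RTP4 held 2 each there, and these and IFIT5 passed in neither fit. Of the 21 members with a match in such a window 6 rose with the block, and of the 9 without 1 rose. HERC5 had 15 CpG dinucleotides in its printed stretch and HERC6 had 9. XAF1 had 5, SAMD9 3, and IFI44 and SAMD9L 0.

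RefSeq windows (250 bases before to 50 after a start, GRCh38.p14) were found for 30 of the 39 measured members. DHX58, IRF7, USP18, TRIM22, IFIT2, OASL, IFITM2, MX2 and LAMP3 had no entry. The ISRE letters were present on either strand in at least 1 window of 21 of the 30 members (70.0%), against 3.89% of the 10749 tested genes with a window and 4.38% of all 27305 genes in the table. The letters TTCNNNGAA, the core of the element bound by STAT dimers, were present in 9 of 30 (30.0%), against 8.79% of tested genes. The median count of CpG dinucleotides in the first listed window was 9.5 for the members and 23.0 for tested genes, and the median ratio of observed to expected CpG was 0.456 against 0.777. These are descriptions of the sequences and not of binding or methylation, neither of which was measured.

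HERC5 and IFI44 were the members that rose after decitabine, and no member fell. HERC5 rose 8.61-fold and IFI44 2.21-fold, and the other 37 members did not pass the test (limma, Benjamini-Hochberg adjusted p under 0.05 over 14884 genes). With the replicate number as a block 8 members rose and 1 fell: IFIH1, SP110, SAMD9, LAMP3, IFIT1 and IFIT3 joined the rises, and XAF1 was the fall. The 2 rises without a block were 5.13% of the members, against 2.01% of all genes, and the absence of falls stood against 1.02%. At an unadjusted limma p under 0.05, without a block, 8 members (20.5%) were higher, against 8.13% of all genes, and 2 (5.13%) lower, against 5.79%. The 8 rises with the block were 20.5% of the members against 7.79% of all genes, and the fall was 2.56% against 5.37%. With the block and both arrays of any 1 replicate number left out, none of the 14884 genes passed (limma), members and other pathway genes included. These fits leave 1 residual degree of freedom per gene, so they cannot tell whether a blocked call depends on 1 pair. At an unadjusted p under 0.05 these 3 fits had 13 to 15 members higher, against 1412 to 1977 of all 14884 genes. They had 1 to 4 members lower, against 1037 to 1734 of all genes. The list had been chosen with results of these data known, so the shares describe it and no test of the list was made.

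The small changes of the listed members leaned upward. The change was above 0 for 27 of 39 members (69.2%) and for 47.2% of all genes, and the median change was 0.34, or 0.30, 0.31 and 0.38 in pairs 1, 2 and 3, against -0.02 for all genes. The members' median was 0.22 without untreated replicate 2 and 0.20 without decitabine replicate 1, settings in which the median of all genes was -0.06 and -0.14. Of the 39 members 20 (51.3%) were higher with decitabine in all 3 pairs, against 22.9% of all genes, and 7 (17.9%) were lower in all 3, against 21.8%. The 33 further interferon-stimulated genes measured outside the list, described below, did not show this lean. Their median change was 0.02, with 54.5% above 0, and 30.3% were higher and 30.3% lower in all 3 pairs. All decitabine arrays lay above all untreated arrays for 11 members (28.2%, against 11.3% of all genes) and below them for 2 (5.13%, against 8.74%). The mean level of the 39 members was 4.44, 4.14 and 4.21 on untreated replicates 1, 2 and 3, and 4.74, 4.44 and 4.50 on decitabine replicates 1, 2 and 3. It was thus higher with decitabine in each pair, and untreated replicate 1 was as high as decitabine replicate 2. The arrays of replicate 1 also had the highest medians over all features. The members' median minus the array median was 1.30, 1.37 and 1.30 on untreated replicates 1, 2 and 3. On decitabine replicates 1, 2 and 3 it was 1.37, 1.81 and 2.02.

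**Figure D1:**
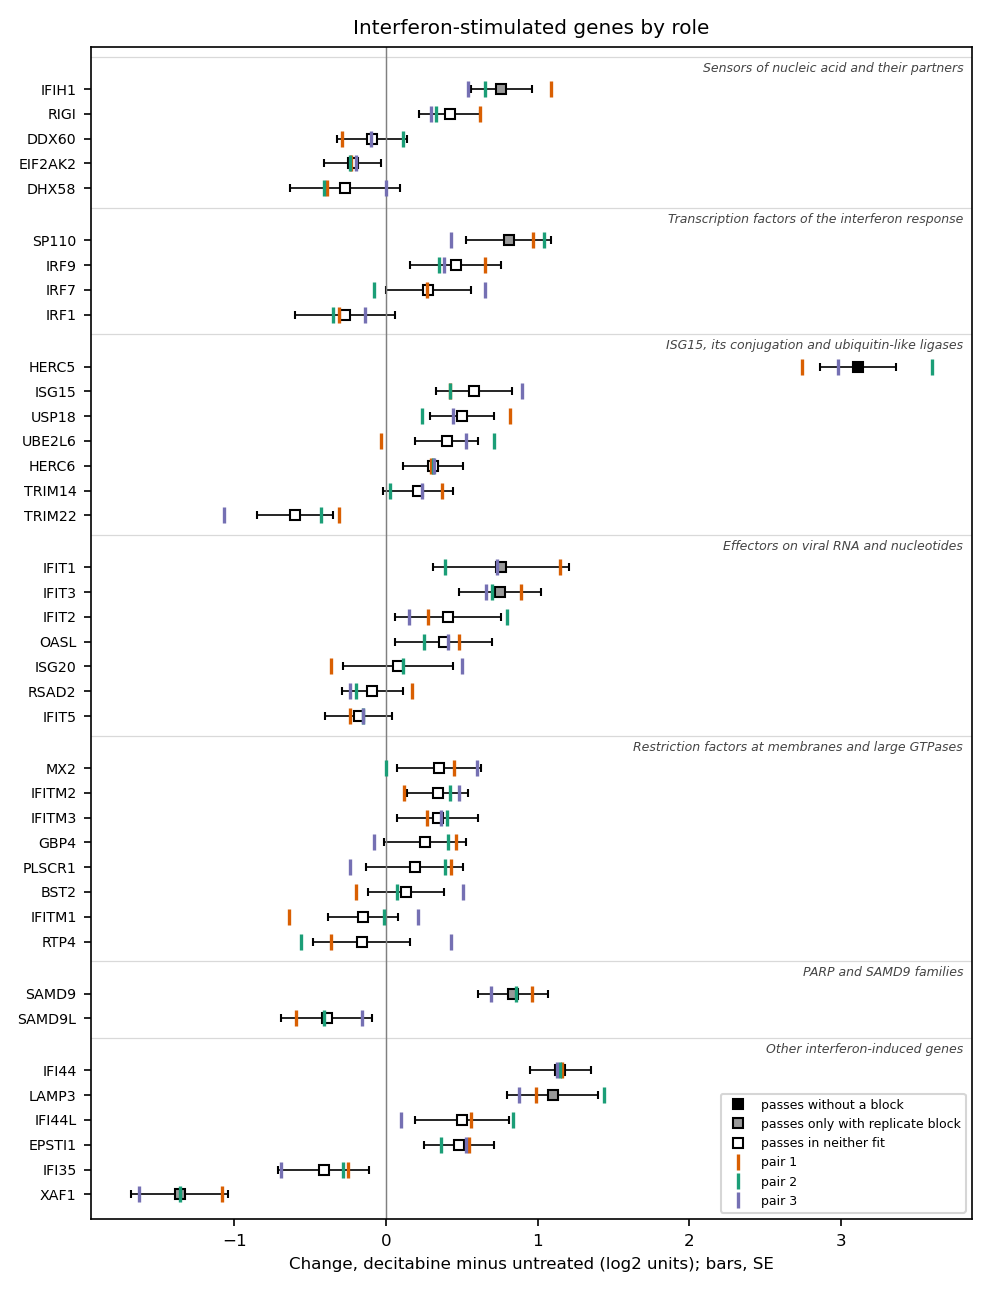
Change (decitabine minus untreated, log2 units, horizontal axis) of the 39 measured interferon-stimulated genes, grouped by role. Squares are the fitted change with its SE, filled black where the gene passed the test without a block, grey where it passed only with the replicate block and white otherwise, and coloured ticks are the differences in the 3 pairs. HERC5 lies apart at 3.11, XAF1 lies lowest at -1.36, and the others lie between -0.60 and 1.15.

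The genes around ISG15 held the largest change. ISG15 is a ubiquitin-like protein that is attached to other proteins, UBE2L6 is its E2 conjugating enzyme, HERC5 its main ligase in human cells, and USP18 the protease that removes it and that also restrains the interferon receptor. HERC5 (Entrez Gene 51191) lay at 2.29, 1.46 and 1.98 on untreated replicates 1, 2 and 3 and at 5.03, 5.06 and 4.96 on the decitabine arrays. The untreated values were at the 20.0 to 41.6 percentile of all features on their arrays, and the decitabine values at the 80.4 to 82.2 percentile. The group means were 1.91 ± 0.42 and 5.02 ± 0.05 (SD, n = 3 per group), a change of 3.11 (SE 0.25, limma adjusted p = 0.00111). HERC5 kept its call without each single array in the fit without a block, where its adjusted p lay between 0.00123 and 0.00957. Its untreated signal may lie near the background, which is unknown here.

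The neighbouring gene HERC6, a related ligase, had a far smaller difference. It lay at 5.37, 5.20 and 5.11 on the untreated arrays and at 5.67, 5.51 and 5.43 on the decitabine arrays. The groups did not overlap and the pairs differed by 0.30, 0.31 and 0.32, but the change of 0.31 did not pass (95% interval -0.14 to 0.76, limma adjusted p = 0.629, and 0.151 with the block). The intervals of HERC5 (2.53 to 3.68) and HERC6, both from the fit without the block, did not overlap. The SE of the HERC6 change was 0.20 in that fit and 0.12 with the block.

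ISG15 itself lay at 4.33, 3.79 and 3.73 untreated and at 4.75, 4.21 and 4.63 with decitabine. It was higher in each pair, but untreated replicate 1 lay above decitabine replicate 2, and the change of 0.58 (95% interval -0.01 to 1.17) had an adjusted p of 0.365, or 0.0580 with the block. USP18 had untreated values of 4.59, 4.72 and 4.67 and decitabine values of 5.41, 4.96 and 5.11. Its groups did not overlap, and the change of 0.50 had an adjusted p of 0.323, or 0.0913 with the block. UBE2L6 changed by 0.40, with pair differences of -0.03, 0.71 and 0.53. The other ubiquitin ligase-like members did not pass either. TRIM14, an adaptor on mitochondria, changed by 0.21, and TRIM22, an antiviral ligase, by -0.60, with pair differences of -0.31, -0.43 and -1.07. Of the 7 measured genes of this group 1 rose (14.3%, against 2.01% of all genes), and 5 were higher in all 3 pairs (71.4%, against 22.9%).

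IFI44, an interferon-induced cytoplasmic protein, was the steadiest of the changed members across the pairs. It lay at 3.15, 3.42 and 3.26 untreated and at 4.31, 4.57 and 4.39 with decitabine, so that the pairs differed by 1.16, 1.15 and 1.13. The change was 1.15 (SE 0.20, limma adjusted p = 0.0227, and 0.00417 with the block). It lost its call without untreated replicate 2 or 3, without any single decitabine array (0.055 to 0.127 over these 5 settings), without both arrays of replicate 1 (0.0548), with quantile normalization (0.0603) and with median centring (0.12). Its change was 1.07 to 1.22 across these settings.

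The neighbouring IFI44L, which limits interferon responses, lay at 3.70, 2.92 and 3.21 untreated and at 4.26, 3.76 and 3.31 with decitabine. The groups overlapped, and the pair differences of 0.56, 0.84 and 0.10 varied more than those of IFI44. The change of 0.50 had a 95% interval of -0.22 to 1.22 and did not pass (limma adjusted p = 0.615, and 0.120 with the block).

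**Figure D2:**
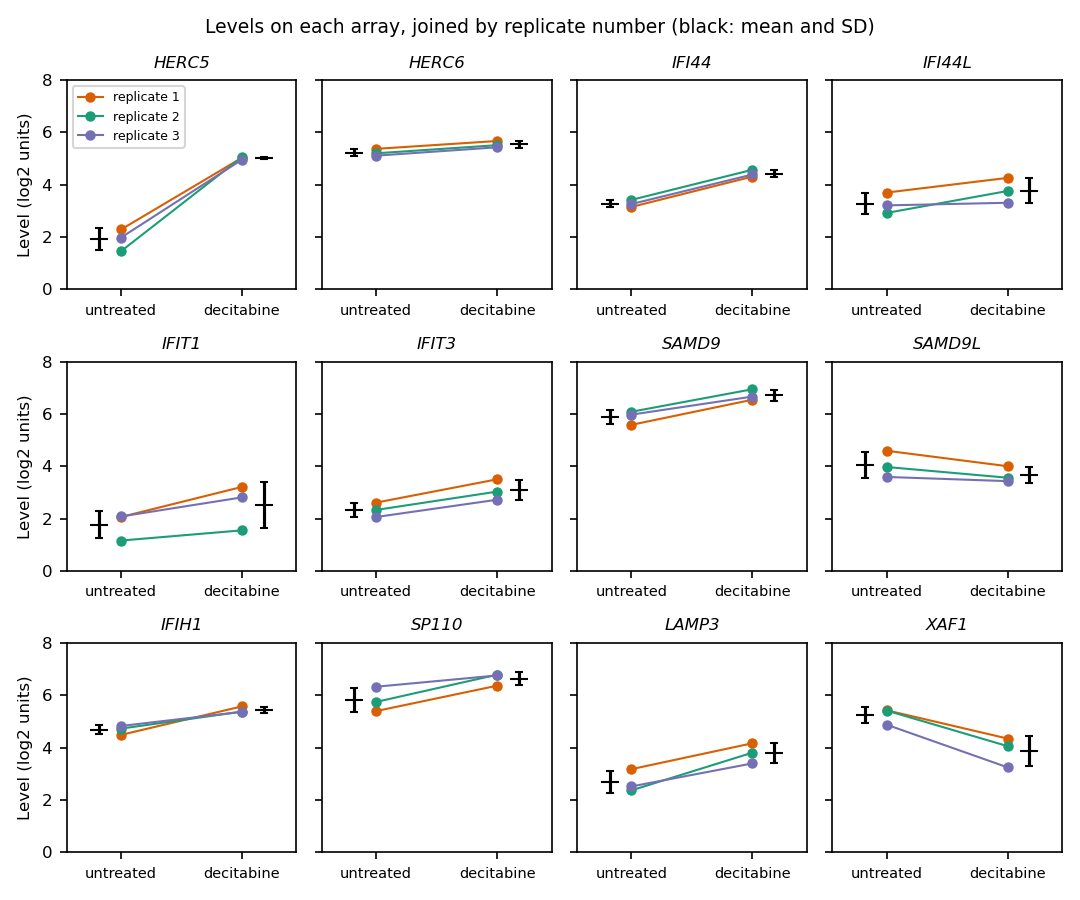
Level on each array (log2 units, vertical axis) of 12 interferon-stimulated genes in untreated and decitabine-treated cells. Coloured lines join arrays of the same replicate number, and black bars are the group mean and SD (n = 3 per group). HERC5 went from 1.46 to 2.29 up to 4.96 to 5.06, the lines of IFI44 are nearly parallel, and XAF1 was lower in each pair.

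Among the sensors of nucleic acid, IFIH1 (MDA5), a helicase that detects long double-stranded RNA, had the largest change. It lay at 4.49, 4.73 and 4.83 untreated and at 5.58, 5.38 and 5.37 with decitabine, without overlap. The change of 0.76 (SE 0.20) had a limma adjusted p of 0.101, and of 0.0288 with the block. Without the block IFIH1 passed with the dimmer 50% of genes left out (0.0214) and with an intensity trend (0.0467). It did not pass with quantile normalization (0.0653), with median centring (0.388) or without any single array (0.18 to 0.302). RIGI (DDX58), the sensor of RNA with 5′ triphosphates, lay at 5.92, 6.32 and 6.12 and then at 6.54, 6.65 and 6.42. It too was higher on every decitabine array, but its change of 0.42 (95% interval -0.06 to 0.89) passed in neither fit (adjusted p = 0.448, and 0.0984 with the block).

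The other measured sensors were level or lower. EIF2AK2 (PKR), the kinase that halts translation on double-stranded RNA, was among the brightest members, at 8.32, 8.53 and 8.37 untreated and at 8.09, 8.29 and 8.17 with decitabine. All decitabine arrays lay below the untreated ones, yet the change was only -0.22 (adjusted p = 0.820, and 0.284 with the block). DHX58 (LGP2), which tunes RIGI and IFIH1, changed by -0.27, and the RIGI partner DDX60 by -0.09. Of these 5 genes none passed in the main fit without the block, where 2.01% of all genes rose. With the block 1 rose, against 7.79% of all genes.

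Among transcription factors of the response, SP110, a nuclear body protein, lay at 5.40, 5.75 and 6.33 untreated and at 6.37, 6.79 and 6.76 with decitabine. Untreated replicate 3 lay just under decitabine replicate 1, without overlap, and the change of 0.81 (SE 0.28) had a limma adjusted p of 0.218, and of 0.0282 with the block. Without the block SP110 passed with an intensity trend (0.0433), and not with quantile normalization (0.132) or without any single array (0.139 to 0.551). IRF9, a DNA-binding factor of the type I response, had untreated values of 3.94, 3.27 and 3.54 and decitabine values of 4.59, 3.62 and 3.92. It was higher in each pair, with a change of 0.46 and an adjusted p of 0.663, or 0.0735 with the block. IRF7, which amplifies interferon transcription, changed by 0.28 with pair differences of 0.27, -0.08 and 0.65. IRF1, the factor most linked to interferon gamma, was lower in each pair, by 0.31, 0.35 and 0.14, without passing (change -0.27, adjusted p = 0.942, and 0.227 with the block).

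The IFIT family, whose proteins bind viral RNA and the translation machinery, lies in a cluster on chromosome 10. IFIT1, IFIT2 and IFIT3 had positive changes. IFIT5 had a small negative one that passed in neither fit, and a difference in direction was not tested. IFIT3 lay at 2.61, 2.33 and 2.06 untreated and at 3.50, 3.03 and 2.72 with decitabine. The groups did not overlap, and the change of 0.75 had a limma adjusted p of 0.236, and of 0.0168 with the block. Without the block IFIT3 passed with quantile normalization (0.0444), and not with median centring (0.212) or without any single array (0.181 to 0.528). IFIT1 had the lowest untreated mean of all members, with values of 2.06, 1.16 and 2.08, and lay at 3.21, 1.55 and 2.81 with decitabine. Replicate 2 was the lowest of its group in both conditions, the groups overlapped, and the change of 0.76 had an adjusted p of 0.586, or 0.0418 with the block.

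IFIT2 had untreated values of 2.67, 1.57 and 1.89 and decitabine values of 2.95, 2.37 and 2.04. The change of 0.41 did not pass (adjusted p = 0.815, and 0.171 with the block). IFIT5 was brighter, at 6.12, 5.81 and 5.64 untreated, and slightly lower in each pair, at 5.88, 5.66 and 5.49 (change -0.18, adjusted p = 0.942, and 0.388 with the block). OASL, an OAS-like protein without synthetase activity that aids RIGI, was higher in each pair with a change of 0.38, while the exonuclease ISG20 changed by 0.08 and RSAD2 (viperin), which makes a chain-terminating nucleotide, by -0.09. The RSAD2 values of 2.16, 2.18 and 2.26 untreated and 2.33, 1.98 and 2.02 with decitabine were below the array medians throughout. OAS1, OAS2 and OAS3, the synthetases that activate RNase L, were not analysed here.

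The restriction factors at membranes and the large GTPases held the brightest member and, of 8 measured genes, none that passed in either fit. Of all genes 3.03% passed without the block and 13.2% with it. IFITM1, IFITM2 and IFITM3 block the fusion of viruses with cell membranes, and their transcripts are similar enough that array features may not part them. IFITM2 lay at 9.11, 8.92 and 9.08 untreated and at 9.23, 9.34 and 9.56 with decitabine. The groups did not overlap, but the change was 0.34 (95% interval -0.12 to 0.80, adjusted p = 0.570, and 0.164 with the block). IFITM3 changed by 0.34 as well, from 6.16, 5.64 and 5.43 to 6.43, 6.04 and 5.79, a difference in the same direction in each pair that was smaller than the spread between the untreated arrays. IFITM1 had untreated values of 7.35, 7.17 and 6.93 and decitabine values of 6.71, 7.16 and 7.14, so that pair 1 differed by -0.64 and pair 3 by 0.21.

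BST2 (tetherin), which holds budding viruses at the cell surface, lay at 6.44, 6.27 and 6.50 untreated and at 6.24, 6.34 and 7.01 with decitabine, a change of 0.13. The GTPase MX2, which acts on viral capsids at the nuclear pore, lay at 2.52, 2.20 and 1.83 and then at 2.97, 2.20 and 2.43, with no difference in pair 2. The guanylate-binding protein GBP4 was as dim, at 1.85, 1.96 and 2.68 untreated and 2.31, 2.37 and 2.60 with decitabine. Their changes of 0.35 and 0.26 had adjusted p of 0.789 and 0.884, or 0.214 and 0.331 with the block. The lipid scramblase PLSCR1 changed by 0.19 and the chaperone RTP4 by -0.16, each with pairs in both directions.

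SAMD9 and SAMD9L, adjacent genes on chromosome 7 whose related proteins restrict poxviruses and cell growth, had changes of opposite sign. SAMD9 lay at 5.58, 6.08 and 5.97 untreated and at 6.54, 6.94 and 6.66 with decitabine, without overlap. The change of 0.84 (95% interval 0.31 to 1.36) had a limma adjusted p of 0.108, and of 0.0126 with the block. Without the block SAMD9 passed with quantile normalization (0.0484), with the dimmer 50% of genes left out (0.0275) and with an intensity trend (0.0123). It did not pass with median centring (0.438) or without any single array (0.173 to 0.388). SAMD9L lay at 4.59, 3.97 and 3.59 and then at 4.00, 3.56 and 3.43, lower in each pair but overlapping (change -0.39, 95% interval -1.08 to 0.31, adjusted p = 0.768, and 0.132 with the block). The 2 intervals, which are from the fit without the block, touched at 0.31. The pairs differed by 0.96, 0.86 and 0.69 for SAMD9 and by -0.59, -0.41 and -0.16 for SAMD9L. The difference between the genes was not tested.

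XAF1, an interferon-induced gene that promotes apoptosis by opposing XIAP, had the largest negative change of the list. It lay at 5.43, 5.42 and 4.88 untreated and at 4.35, 4.06 and 3.25 with decitabine, so that every decitabine array was below every untreated one. The pairs differed by -1.08, -1.36 and -1.63. The change of -1.36 (SE 0.32), 2.56-fold, had a limma adjusted p of 0.0701, and of 0.00515 with the block. Without the block it passed with quantile normalization (0.0179), median centring (0.0306), an intensity trend (0.0128) and the dimmer 50% of genes left out (0.0219). It did not pass in any fit that left arrays out (0.062 to 0.257 without single arrays, and 0.105 without both arrays of replicate 1).

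LAMP3, a lysosomal membrane protein also known as a marker of mature dendritic cells, lay at 3.18, 2.37 and 2.52 untreated and at 4.17, 3.81 and 3.40 with decitabine. The change of 1.10 (SE 0.30) had a limma adjusted p of 0.106, and of 0.0101 with the block. Without the block it passed with quantile normalization (0.0113), with median centring (0.0435) and without untreated replicate 1 (0.0498), and not without any other single array (0.143 to 0.364) or without both arrays of replicate 1 (0.0713). Of the 6 listed dendritic cell markers only CD1C was measured, and it lay at 3.05, 1.50 and 1.96 untreated and at 2.85, 1.64 and 2.03 with decitabine. Of the 5 measured leukocyte markers CD14 and CD68 were higher on every decitabine array and the other 3 had negative changes, as given above, and their part in the LAMP3 result was not tested. EPSTI1, an interferon-induced stromal interaction gene, was higher in each pair with a change of 0.48 (adjusted p = 0.433, and 0.0563 with the block). IFI35, a partner of NMI, was lower in each pair with a change of -0.41 (adjusted p = 0.727, and 0.128 with the block).

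The members were next ordered by their untreated level. The untreated arrays enter both the level and the change, so the order is a description. On all 3 untreated arrays 30 of the 39 members lay above the array median, 17 of them among the brightest 25% of features, and 6 (HERC5, IFIT1, IFIT2, IFIT3, RSAD2, MX2) lay below the median. The 13 dimmest members (untreated means of 1.77 to 3.23) had a median change of 0.28, the middle 13 (3.24 to 4.96) of 0.46 and the 13 brightest (5.23 to 9.04) of 0.19. All genes within the same level ranges had medians of -0.02, -0.01 and -0.02.

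The change was above 0 for 9, 10 and 8 of the 13 members of each level group, against 45.7%, 48.3% and 48.5% of all genes at the same levels. In these groups 5, 9 and 6 members were higher in all 3 pairs, against 22.9% of all genes at any level. HERC5 was the rise in the dim group and IFI44 in the middle one, where 2.06% and 2.35% of all genes at these levels rose, against 1.94% at the bright levels. With the block 4, 2 and 2 members rose, against 6.59%, 8.91% and 10.1% of all genes at the same levels, and the fall, XAF1, was in the bright group. Ordered by the mean over all 6 arrays, the medians were 0.28, 0.46 and 0.21, and XAF1 was in the middle group.

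**Figure D3:**
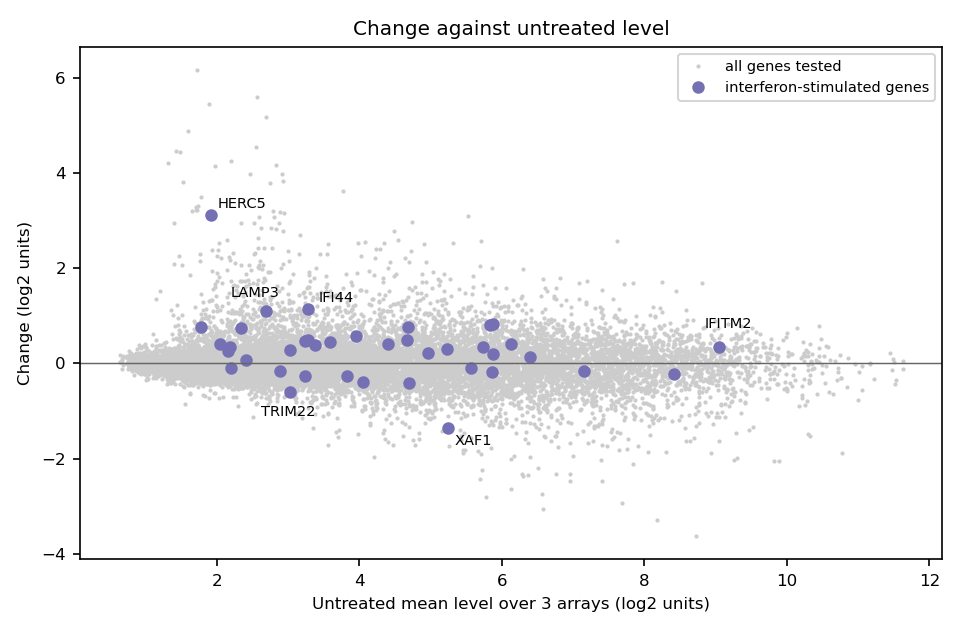
Change (decitabine minus untreated, log2 units, vertical axis) against the mean untreated level (log2 units, horizontal axis) for all 14884 tested genes (grey) and the 39 interferon-stimulated genes (purple). HERC5 lies among the dim genes with large rises, and members at all levels scatter around a median change of 0.34.

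The members were also divided by their promoter features, with no test of the difference. The 21 members with the ISRE letters in a window had a median change of 0.26, above 0 in 15, and the 9 without had 0.31, above 0 in 5. Both rises without the block, and 6 of the 7 rises with the block among members with a window, were in the first group. XAF1, and the remaining rise SP110, had no match. The 13 members with an observed to expected CpG ratio of at least 0.6 in the first listed window, HERC5 among them, had a median change of 0.31, and 2 of them rose with the block. The 17 below it, IFI44 and XAF1 among them, had a median of 0.26, and 5 of them rose and 1 fell with the block. Of all genes 7.79% rose and 5.37% fell with the block.

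Around the list, 61 of 126 other genes of the interferon pathway were measured, and more of them fell than rose: 1 rose (1.64%, against 2.01% of all genes) and 3 fell (4.92%, against 1.02%). With the block 5 rose and 10 fell (8.20% and 16.4%, against 7.79% and 5.37%). Their median change was 0.05. The 5 with the smallest changes among the 15 that passed in either fit (TLR3, TANK, STAT3, CGAS, IRF2BP2), and the genes below that passed in neither, are named for their place in the pathway after their values had been seen. None of 22 listed interferon genes, nor IFNAR1 or IFNAR2, was analysed here, so neither the inducing cytokines nor the full receptor could be followed.

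Of the receptor and JAK-STAT genes 10 of 19 were measured and none passed without the block, where 3.03% of all genes passed. JAK1 lay at 8.23, 8.95 and 8.91 untreated and at 8.40, 9.09 and 8.84 with decitabine, and TYK2 at 4.63, 4.14 and 3.85 and then at 4.59, 4.03 and 4.04. The feedback inhibitor SOCS1 changed by 0.31. STAT3, a factor shared by many cytokines, changed by 0.61 and the IRF2 partner IRF2BP2 by -0.49, and both passed only with the block (adjusted p of 0.0271 and 0.0467).

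Of the adaptors, kinases and factors that induce interferon 18 of 20 were measured. TRIM25, a ubiquitin ligase of the RIGI pathway, lay at 7.92, 8.47 and 7.97 untreated and at 6.82, 7.14 and 6.68 with decitabine, and fell by 1.24 on the log2 scale (limma adjusted p = 0.0349). With the block RNF135, the ligase that ubiquitinates RIGI, fell too (-0.86, adjusted p = 0.0126), as did the adaptor TRAF3 (-0.87, adjusted p = 0.0163), the endosomal RNA receptor TLR3 (-0.77, adjusted p = 0.0163) and the TBK1 partner TANK (-0.64, adjusted p = 0.0450). The DNA sensors CGAS and AIM2 and the adaptor MYD88 rose with the block, by 0.58, 0.85 and 0.80. Without the block 5.56% of the 18 fell, against 1.02% of all genes. With it 16.7% rose and 27.8% fell, against 7.79% and 5.37% of all genes. The RIGI and IFIH1 adaptor MAVS changed by -0.36, the kinase TBK1 by 0.15, IRF3 by 0.18 and STING1 by 0.18, and none of these passed in either fit.

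Among 33 measured further interferon-stimulated genes 1 rose (3.03%, against 2.01% of all genes) and 2 fell (6.06%, against 1.02%). SAMHD1, a hydrolase of deoxynucleotide triphosphates, went from 7.09, 6.83 and 6.53 to 8.67, 8.78 and 8.39, a change of 1.80 (SE 0.23, limma adjusted p = 0.00679). SLFN5, a member of the Schlafen family, went from 8.86, 9.32 and 9.58 to 7.30, 7.24 and 7.12, a change of -2.03 (SE 0.24, adjusted p = 0.00503). WARS1, the tryptophanyl-tRNA synthetase, which interferon gamma induces, went from 7.19, 7.63 and 7.80 to 5.96, 5.88 and 6.05, a change of -1.58 (SE 0.23, adjusted p = 0.0109), and its other feature gave -1.47. TRIM38 and GBP3 fell with the block only (-1.19 and -0.99, adjusted p of 0.0101 and 0.0370). With the block 3.03% of the 33 rose and 12.1% fell, against 7.79% and 5.37% of all genes. The groups did not overlap for the 5 named genes, which adds no support, since the test on the same arrays picked them. All decitabine arrays lay above all untreated arrays for 12.1% of the 33 and below them for 18.2%, against 11.3% and 8.74% of all genes.

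**Figure D4:**
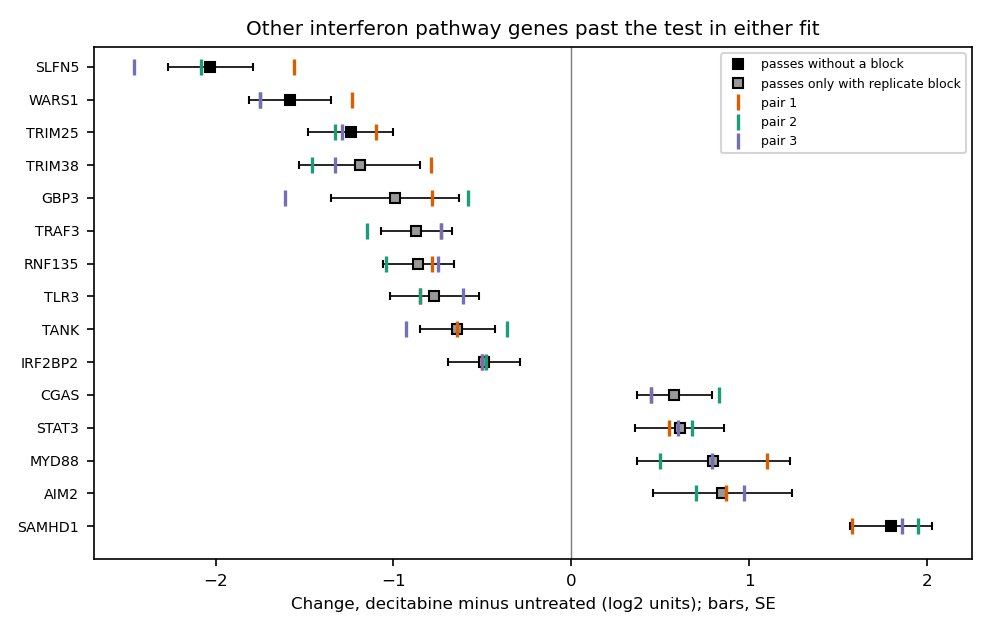
Change (decitabine minus untreated, log2 units, horizontal axis) of the 15 genes among 61 other measured interferon pathway genes that passed the test in either fit. Squares are the fitted change with its SE, black where it passed without a block and grey where it passed only with the replicate block, and ticks are the 3 pairs. SLFN5, WARS1 and TRIM25 lie lowest and SAMHD1 highest.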

How the data were processed

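Total RNA from 6 SUM159 samples, biotin-labelled per the labels' protocols, was measured on arrays. The log2 expression values were made by the authors before they were deposited, and the submitters' processing notes name the Transcriptome Analysis Console. Normalization, filters and log base were not stated in what was used, and log2 was read from the range. Of 48226 features 16098 had a single gene symbol, none had several and 32128 were unnamed here. Gene IDs all matched RefSeq (GRCh38.p14), which gave current symbols, and the feature with the highest mean stood for each of 14884 genes. Groups and replicate numbers came from the sample titles.

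Groups were compared with limma 3.58.1 (lmFit, eBayes) in R 4.3.3 over all genes and all 6 arrays, two-sided, with Benjamini-Hochberg adjustment and a threshold of 0.05. The fit was tested on simulated data. Deviations from group means correlated at 0.682, 0.595 and 0.558 between same-numbered arrays and at -0.483 to -0.006 between others, so the numbers were taken to pair the samples, and the blocked value stands beside a result where it changes a call. Whether this reflects shared cultures or shared array processing was not tested. Members and gene lists were chosen with earlier results of these data known. Values on every array were given for members that passed in either fit, for the 5 brightest and 5 dimmest members, and for relatives of members that passed. Of other pathway genes the 10 with the largest changes among those that passed in either fit were to be named. Further genes are named for their role. Promoter letters were searched on both strands of RefSeq windows, credited to GRCh38.p14. The alternatives tried were the block, quantile normalization, median centring, leaving out the dimmer 50% of genes, the mean of a gene's features, an intensity trend, and leaving out arrays or pairs, with and without the block. The number of arrays limits the precision.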

Additional observations from a re-analysis of the deposited data

How the results depend on the processing

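The main counts were 2 members higher and 0 lower, and 1 other pathway gene higher and 3 lower. With the replicate block they were 8 and 1, and 5 and 10. With the block and median centring together, a setting added after the data were seen, they were 9 and 1, and 6 and 9, and with the block and quantile normalization, also added, 8 and 1, and 6 and 10. Of all 14884 genes 299 were higher and 152 lower in the main fit, and 1159 and 800 with the block. The added settings gave 1270 and 875 genes with median centring and 1225 and 1046 with quantile normalization. Without the block, quantile normalization gave 4 and 1 members and 6 lower pathway genes, against 551 and 387 of all genes. An intensity trend gave 5 and 1 members and 3 and 6 pathway genes, against 694 and 468 of all genes. Median centring gave 2 members higher, HERC5 and LAMP3, and 1 lower, XAF1, against 280 and 91 of all genes. With the dimmer 50% of genes left out, 23 members remained, HERC5 not among them, with 3 higher and 1 lower, and 7 pathway genes were lower. Of the 7442 genes in this fit 557 were higher and 432 lower. Without both arrays of replicate 1 the count was 1 member higher, and of all genes 245 were higher and 143 lower. With the block and both arrays of replicate 1, 2 or 3 left out, settings added after the data were seen, limma called 0 members and 0 pathway genes in either direction, and 0 of all 14884 genes. At an unadjusted p under 0.05 these fits had 1780, 1412 and 1977 genes higher and 1734, 1037 and 1479 lower. They leave 1 residual degree of freedom per gene, and even HERC5, with changes of 2.86 to 3.29, did not pass. The fits thus cannot tell whether a blocked call depends on 1 pair. Every blocked call given here comes from the fit to all 3 pairs. Leaving out 1 array at a time gave 1 to 3 members higher, 0 lower, 1 pathway gene higher and 1 to 4 lower, and a median member change of 0.20 to 0.38. Of all genes 95 to 321 were higher and 33 to 156 lower in these fits. The cause of these shifts was not tested. The sign of the change differed for up to 4 of 39 members when arrays were left out, and for 0 under the other settings. Using the mean of a gene's features moved no count of members or pathway genes. The share of member promoters with the ISRE letters was 70.0% with the wider letters GAAANNGAA and 66.7% with 1 window per gene, a setting added later. No detection call was used, so the level of background is unknown, and members under the array median may lie near it.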
